A study of Mus musculus with 15 samples.

Results

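The histone genes on the array were taken as the probe sets annotated to a single gene symbol beginning with H1f, H2a, H2b, H3c, H3f, H4c, H4f or Hist1 to Hist4. The rule found 36 probe sets of 25 genes, among 45037 probe sets without array controls, of which 34945 carried 1 gene symbol and read 18193 genes. They were set apart into 15 probe sets of 10 replication-dependent genes and 21 probe sets of 15 replacement genes. The replacement class held every member that was not replication-dependent, germ-cell variants included. A further 27 probe sets were annotated to several symbols with at least 1 histone gene among them and lay outside the rule. No probe set annotated to a single H4 gene was found.

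Primary chondrocytes, the cells of cartilage, came from the hind limbs of CD1 mice at embryonic day 15.5 and were grown in monolayer with a compound or its vehicle, DMSO. The compounds were LY294002, an inhibitor of the lipid kinase PI3K, U0126, an inhibitor of the kinase MEK, SB202190, known as an inhibitor of p38 kinase and grouped with U0126 in the series text, and Trichostatin A, an inhibitor of histone deacetylases. Each of the 5 treatments had 3 arrays, described as biological replicates, and the incubation was 24 h by the sample labels but 2 h by the series text. Nothing in the labels told whether animals were pooled, so the replicate error may hold both animal and culture differences.

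Histones are the proteins around which DNA is wound. H2A, H2B, H3 and H4 form the core of the nucleosome, and the H1 linker histones bind the DNA between cores. Replication-dependent histone genes lie mainly in clusters and are transcribed in S phase, when new DNA needs packaging, and most of their mRNAs end in a stem-loop rather than a poly(A) tail. Replacement histones, such as H2A.X, H2A.Z and H3.3, mostly have polyadenylated messages and are deposited outside S phase as well. Trichostatin A blocks the removal of acetyl groups from histone tails.

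To show what the upstream sequence of responding members looked like, the 150 bases before the RefSeq start are given 5′ to 3′ for 6 genes, on GRCm38.p6. Capitals mark matches on either strand to CCAAT, to the octamer ATTTGCAT, to AAACACA of H1 promoters, to GGGCGG and to TATAAA. The first 5 genes are replication-dependent and the last is a replacement linker histone.
H1f2 (chr13:23738657-23738806, + strand): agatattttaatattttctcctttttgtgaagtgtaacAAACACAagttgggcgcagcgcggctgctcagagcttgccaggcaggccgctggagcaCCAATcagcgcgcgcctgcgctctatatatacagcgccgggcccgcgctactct
H2aw (chr11:58954535-58954684, + strand): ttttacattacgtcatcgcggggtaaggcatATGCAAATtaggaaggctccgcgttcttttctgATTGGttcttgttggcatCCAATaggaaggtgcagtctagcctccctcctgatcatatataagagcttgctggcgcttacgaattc
H2bc18 (chr3:96269550-96269699, + strand): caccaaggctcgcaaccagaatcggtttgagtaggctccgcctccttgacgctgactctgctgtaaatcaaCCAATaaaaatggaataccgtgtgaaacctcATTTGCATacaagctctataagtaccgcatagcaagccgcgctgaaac
H2ac19 (chr3:96240375-96240524, - strand): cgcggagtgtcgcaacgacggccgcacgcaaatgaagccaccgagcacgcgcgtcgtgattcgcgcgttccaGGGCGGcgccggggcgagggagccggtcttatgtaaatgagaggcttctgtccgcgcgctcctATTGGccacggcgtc
H3c11 (chr13:21783398-21783547, - strand): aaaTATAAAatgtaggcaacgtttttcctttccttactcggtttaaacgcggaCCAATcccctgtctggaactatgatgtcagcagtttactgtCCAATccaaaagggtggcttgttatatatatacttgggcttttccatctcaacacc
H1f10 (chr6:87981483-87981632, - strand): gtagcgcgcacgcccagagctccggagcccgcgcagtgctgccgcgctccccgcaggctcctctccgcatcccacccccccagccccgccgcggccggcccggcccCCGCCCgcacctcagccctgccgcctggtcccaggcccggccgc

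Windows were given for 22 of the 25 member genes. H2ax, H2bc21 and H3c7 had none. CCAAT, the letters bound by the factor NF-Y, occurred in 8 of 8 windows of replication-dependent genes and in 10 of 14 of replacement genes, against 24.5% of 32851 windows of all genes. The octamer, read by POU factors, was found in 2 of 8 and 1 of 14 windows, against 1.0% of all windows. AAACACA was found in 2 of 8 and 1 of 14 windows against 3.5%, GGGCGG in 2 of 8 and 6 of 14 against 28.6%, and TATAAA in 3 of 8 and 2 of 14 against 7.6%. These are matches of letters, and a window without a match says only that the letters were not there.

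Expression was read as log2 signal on Affymetrix mouse arrays, and array medians lay between 6.9 and 7.0. Tests were limited to probe sets with a mean signal of 50 or more (5.64 on the log2 scale) in at least 1 of the treatments compared. Calls were made with limma at a Benjamini-Hochberg adjusted p under 0.05 over all probe sets tested. The 4 comparisons with DMSO share the same 3 DMSO arrays. Each gene is described by its brightest single-symbol probe set, and ± gives the SD of 3 arrays. All 8 chondrocyte markers listed were measured, and their mean log2 signal lay between 12.4 and 12.5 on the DMSO arrays. The arrays read RNA of mixed cultures, in which fewer cells of a type and less RNA per cell cannot be told apart.

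Among single-symbol probe sets, LY294002 raised histone signals, chiefly of replication-dependent genes. Of shared probe sets outside the rule, 10 of 23 tested were higher and 0 lower, against 6.83% and 1.78% of all probe sets tested. Of these 10, 1 shared by 8 H3 genes had a DMSO mean of 5.50, under the signal minimum, and entered the test through its LY294002 mean. Those higher included 4 of H3.3, of the replacement class. Also higher were probe sets shared by replication-dependent genes, among them 3 H2B genes (0.76), 13 H4 symbols (0.56) and 8 H3 genes (0.54 and 0.60). Those not called included 1 shared by 10 H2A genes (0.09), 1 shared by 12 H3 genes (0.15) and a brighter one of the 13 H4 symbols (0.28). Of 31 members tested, 12 were higher than in DMSO and 0 lower, against 6.83% called higher and 1.78% lower among all probe sets tested. At an unadjusted p under 0.05, limma also found 0 lower and 13 higher. The share of all probe sets at that unadjusted threshold was not counted, so these numbers have no background to be set against. The higher members comprised 9 of 15 replication-dependent probe sets, of 6 genes, and 3 of 16 tested replacement probe sets, of 2 genes. Of the 12, 1 probe set each of H2aw and H2bc21 had a DMSO mean under the signal minimum and entered the test through its LY294002 mean. Without these, 10 of 29 were higher, of which 7 of 13 were replication-dependent, of 5 genes. The median log2 difference was 0.72 over the replication-dependent probe sets and 0.03 over the replacement ones, against -0.03 over all probe sets. The replacement median takes in the dim germ-cell variants, with 5 of its 21 probe sets not tested. It does not describe the expressed replacement genes alone.

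H2aw, a core histone H2A gene, read 8.52, 8.03 and 8.24 on the DMSO arrays and 9.72, 9.41 and 9.22 with LY294002. All 3 LY294002 arrays lay above all 3 DMSO arrays, and the difference of 1.19 ± 0.14 (SE), or 2.28-fold, was the largest of any member (limma adjusted p = 0.000158). The other single-symbol H2aw probe set, with a DMSO mean of 5.50 below the signal minimum, read 0.78 higher. A probe set shared by H2aw and Trim17, outside the rule, was brighter in DMSO (8.97) and rose less, by 0.37 (limma adjusted p = 0.0466). This shared probe set was not called with SB202190 (0.14) or Trichostatin A (0.04), so the size of the H2aw differences depended on the probe set. H2ac19, another H2A gene, read 8.58, 8.35 and 8.35 in DMSO and 9.42, 9.20 and 9.26 with LY294002. Its groups did not overlap either, with a difference of 0.86 ± 0.09 (SE; limma adjusted p = 4.81e-05), and the second H2ac19 probe set rose by 0.95. H2ac19 and its neighbour H2ac18 are near-identical copies, so the array may read both. A dimmer probe set annotated to both, outside the rule, read 0.54 higher with overlapping arrays and was not called (limma adjusted p = 0.157). With Trichostatin A its difference was 0.21, not called either.

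H1f2, a linker histone, read 11.59, 11.25 and 11.42 in DMSO and 12.39, 12.44 and 12.05 with LY294002. The arrays of the groups were again separate, and the rise was 0.87 ± 0.11 (SE; limma adjusted p = 0.000333). A second H1f2 probe set rose by 0.81, while the remaining one read -0.11 and was not called, so the probe sets of this gene disagreed. H2bc18, a core H2B gene, read 6.74, 7.09 and 6.94 in DMSO and 7.40, 7.81 and 7.72 with LY294002, a difference of 0.72 (limma adjusted p = 0.00152). H2bc22, also H2B, rose by 0.53 on its single probe set. For H2bc21, also an H2B gene, the brightest probe set had a difference of 0.30 and was not called. The H2bc21 call came from the dimmer one, at 1.06, whose DMSO mean of 5.20 lay below the signal minimum. The replication-dependent genes H1f4, H3c4, H3c7 and H3c11 were not called on their single-symbol probe sets, with differences between -0.07 and 0.10. Probe sets shared by 8 H3 genes, H3c4 and H3c7 among them, were called higher, by 0.54 and 0.60. Those shared by 12 H3 genes, with H3c4, H3c7 and H3c11 among them, were not called (0.03 and 0.15).

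The replacement genes that rose with LY294002 were H2az2 and H1f10. H2az2, which encodes an H2A.Z protein of promoter nucleosomes, read 11.23, 10.91 and 10.94 in DMSO and 11.99, 11.74 and 11.74 with LY294002. All LY294002 arrays were above all DMSO arrays, the difference was 0.80 ± 0.10 (SE; limma adjusted p = 0.000182), and the other H2az2 probe set also rose by 0.80. H1f10, a linker histone outside the clusters, rose from 10.45 ± 0.08 to 11.06 ± 0.17, by 0.60 (limma adjusted p = 0.00150). H2az1, the other H2A.Z gene, had a difference of 0.10 (95% CI -0.24 to 0.43). H2ax, whose protein is phosphorylated at DNA breaks, had one of 0.37 and missed the threshold (limma adjusted p = 0.0538), although its arrays did not overlap those of DMSO, and with the replicate block it passed (limma adjusted p = 0.00449). H3f3b, a gene of the replacement histone H3.3, read 0.45 higher (limma adjusted p = 0.454) and passed with the replicate block (limma adjusted p = 0.0293). In the other H3.3 gene, H3f3a, the difference was 0.16 and not called. These single-symbol H3.3 probe sets were dim, and of 5 brighter probe sets shared by H3.3 genes and related symbols, outside the rule, 4 were called higher with LY294002, by 0.41 to 0.56.

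**Figure D1:**
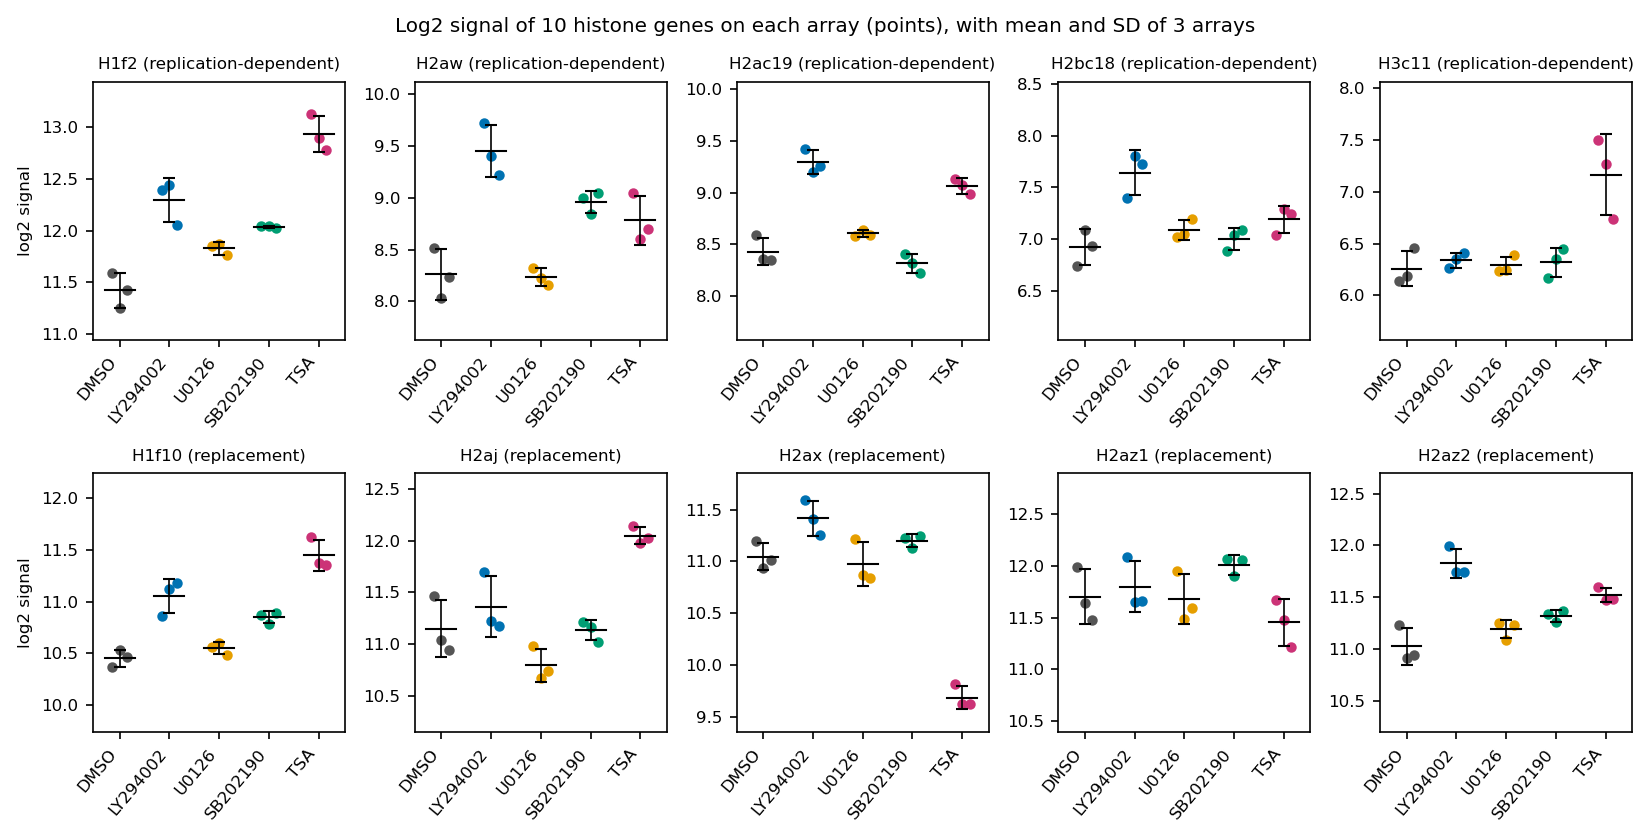
Log2 signal (vertical axis, spanning 2.5 units in every panel) of 10 histone genes in each treatment (horizontal axis; TSA is Trichostatin A). Points are the 3 arrays, bars the mean and SD. H2aw peaks with LY294002 at 9.45, H1f2 with Trichostatin A at 12.93, and H2ax falls with Trichostatin A to 9.68.

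With U0126, limma called 0 of 31 members tested in either direction, against 1.14% higher and 0.792% lower among all probe sets tested. At an unadjusted p under 0.05, where the share of all probe sets was not counted, 1 member was higher and 2 were lower. H1f2 read 11.86, 11.87 and 11.76 with U0126, above all 3 DMSO arrays. Its difference of 0.40 missed the threshold (limma adjusted p = 0.0926) and passed with the replicate block (limma adjusted p = 0.0174). H2aj, an H2A variant expressed outside S phase, was 0.35 below DMSO on average, with overlapping arrays, and was not called (limma adjusted p = 0.365). It was called lower with the replicate block (limma adjusted p = 0.0300) and with quantile normalization (limma adjusted p = 0.0401). The median difference over all members was 0.00.

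SB202190 raised 3 of 30 members tested and lowered 0, against 1.23% higher and 0.706% lower among all probe sets tested. At an unadjusted p under 0.05, where the share of all probe sets was not counted, 7 were higher and 0 lower. The H2aw arrays lay between 8.84 and 9.04, above every DMSO array, a difference of 0.70 (limma adjusted p = 0.0165). H1f2 lay at 12.04, 12.04 and 12.02, 0.61 above DMSO (limma adjusted p = 0.00920). H1f10 read 10.87, 10.79 and 10.89, a difference of 0.40 (limma adjusted p = 0.0443). These calls rested on single arrays: without DMSO replicate 2 there were 0, and without DMSO replicate 3, SB202190 replicate 1 or SB202190 replicate 3 there was 1. With the replicate block 5 probe sets were called, the added ones being of H2az2 (0.29) and a second H1f2 probe set (0.49). H2ac19, which rose with LY294002, had a difference of -0.11 (95% CI -0.30 to 0.07) with SB202190.

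Trichostatin A moved members in both directions. Of 31 tested, 15 were higher and 1 lower, against 23.0% called higher and 20.6% called lower among all probe sets tested. The replication-dependent class had 10 of 15 probe sets higher, of 6 genes, and 0 lower. All 15 had a positive difference, with a median of 0.44 against -0.06 over all probe sets. The same H2aw and H2bc21 probe sets entered this test through their Trichostatin A means, and without them 13 of 29 members were higher, of which 8 of 13 were replication-dependent. Of the replacement class, 5 of 16 tested probe sets were higher, of 3 genes, and 1 lower, with a median over its 21 probe sets of -0.09. That median again takes in the dim germ-cell variants and does not describe the expressed replacement genes alone. At an unadjusted p under 0.05, limma found 0 replication-dependent probe sets lower and 11 higher, with no share of all probe sets counted at that threshold.

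**Figure D2:**
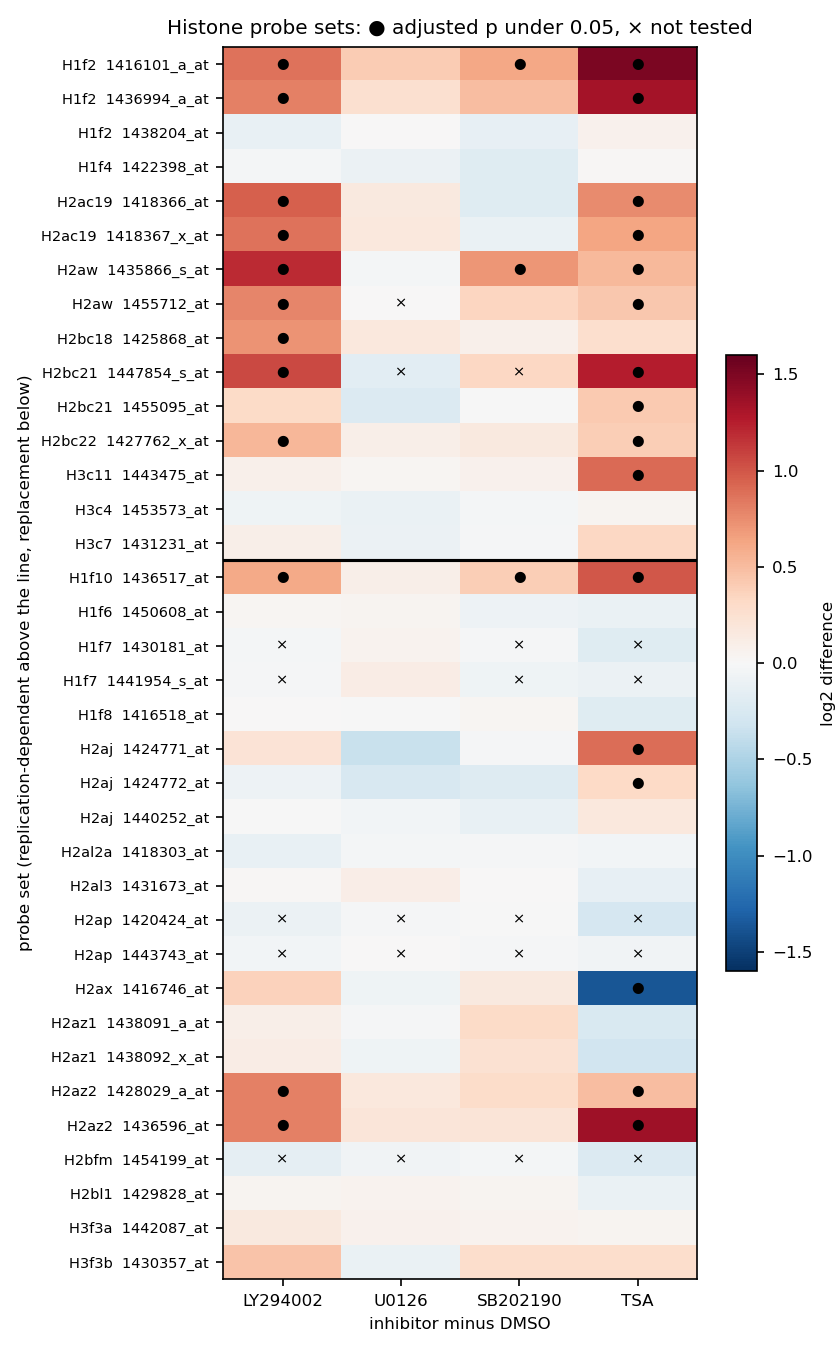
Log2 difference from DMSO (colour) of all 36 histone probe sets (rows, with the array's probe set names) for each inhibitor (columns). The filled circles mark an adjusted p under 0.05 in limma and crosses a probe set that was not tested. The replication-dependent block carries 9 circles with LY294002 and 10 with Trichostatin A.

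H1f2 had the largest rise of any member with Trichostatin A. The linker histone gene read 13.13, 12.89 and 12.78, every array above the DMSO range of 11.25 to 11.59, and its difference was 1.51 ± 0.11 (SE), or 2.85-fold (limma adjusted p = 1.37e-08). Another H1f2 probe set rose by 1.33 and the last, at 0.07, was not called. H3c11, a core H3 gene, read 6.13, 6.18 and 6.45 in DMSO and 7.50, 7.27 and 6.73 with Trichostatin A. Replicate 3 was the lowest of the Trichostatin A arrays and still above DMSO, and the difference was 0.91 ± 0.15 (SE; limma adjusted p = 7.70e-05). For H3c11 the kinase inhibitors had differences between 0.03 and 0.08, not called.

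H2ac19 rose by 0.63 (limma adjusted p = 1.65e-05), from 8.43 ± 0.13 to 9.06 ± 0.07. H2aw rose by 0.52, H2bc21 by 0.42 and H2bc22 by 0.39 on their brightest probe sets. The second H2ac19 probe set rose by 0.75, and those of H2aw and H2bc21 that were below the signal minimum in DMSO read 0.44 and 1.26 higher. A replication-dependent signal outside the rule went the other way: a probe set shared by 10 H2A genes differed by -2.29 (limma adjusted p = 1.70e-06). H2bc18, which rose with LY294002, had a difference of 0.27 here and was not called (limma adjusted p = 0.0708), with overlapping arrays.

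H2ax was the one member called lower with Trichostatin A. It read 11.20, 10.93 and 11.01 in DMSO and 9.81, 9.62 and 9.62 with Trichostatin A. The groups were more than 1 log2 unit apart at their nearest arrays, and the difference was -1.36 ± 0.11 (SE), or 2.57-fold lower (limma adjusted p = 4.35e-08). This gene is known to give both stem-loop and polyadenylated mRNA. The H2A.Z genes parted: H2az2 rose by 0.49 (limma adjusted p = 0.000571) and by 1.36 on its other probe set, which read 6.83, 6.55 and 6.61 in DMSO and 8.0 on all 3 arrays with Trichostatin A. H2az1 had differences of -0.25 and -0.30 on its pair of probe sets, neither called, and its arrays overlapped those of DMSO on both. The pair of probe sets shared by H2az1 and the symbol Gm8203, outside the rule, was called lower, at -0.47 (limma adjusted p = 0.00371) and -0.44 (limma adjusted p = 0.0311).

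H1f10 read 11.62, 11.37 and 11.35 with Trichostatin A, all above the DMSO range of 10.36 to 10.53. The rise was 0.996 ± 0.10 (SE), or 1.99-fold (limma adjusted p = 2.73e-07). H2aj read 11.46, 11.04 and 10.94 in DMSO and 12.14, 11.98 and 12.02 with Trichostatin A. Its arrays were separate and it rose by 0.90 (limma adjusted p = 7.19e-05), while its other probe sets read 0.32, called, and 0.17, not called. The H3.3 genes H3f3a and H3f3b had differences of 0.04 and 0.28 on dim single-symbol probe sets and were not called. Of the 5 brighter probe sets shared by H3.3 genes and related symbols, 4 were called higher, by 0.26 to 0.65.

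The germ-cell variants gave no call in any comparison of the main fit. With the replicate block, 1 H1f7 probe set was called lower in Trichostatin A against the kinase inhibitors (-0.19, limma adjusted p = 0.0277). The linker histones H1f6, H1f7 and H1f8 and the core variants H2al2a, H2al3, H2ap, H2bfm and H2bl1, known from testis or oocyte, had mean log2 signals of 6.50 or less in every treatment. H2bfm and both probe sets of H2ap were never tested, and those of H1f7 were tested in 2 of the 5 comparisons.

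Trichostatin A was also compared with the mean of the 3 kinase inhibitors, which tests the difference between the inhibitors without the DMSO arrays. Of 33 members tested, 12 were higher and 3 lower with Trichostatin A, against 23.4% and 22.2% of all probe sets tested. H2aj was higher by 0.95, H1f2 by 0.88, H3c11 by 0.85 and H1f10 by 0.63, with limma adjusted p-values from 5.17e-07 to 1.51e-05. H2ax was lower by 1.51, its log2 difference being -1.51 (limma adjusted p = 6.56e-10). H2az1 was lower on both probe sets, by -0.37 and -0.40 on the log2 scale. The H2az1 call on the brighter probe set was lost without Trichostatin A replicate 2 or replicate 3. H2bc21 was higher by 0.39, a call lost without Trichostatin A replicate 1 (0.28, limma adjusted p = 0.115).

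For H2aw the mean of the kinase inhibitors joined unlike levels. H2aw averaged 9.45 with LY294002, 8.96 with SB202190 and 8.23 with U0126, and 8.78 with Trichostatin A, which lay between them. Its difference from the mean of the kinase inhibitors was -0.10 (95% CI -0.35 to 0.15).

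**Figure D3:**
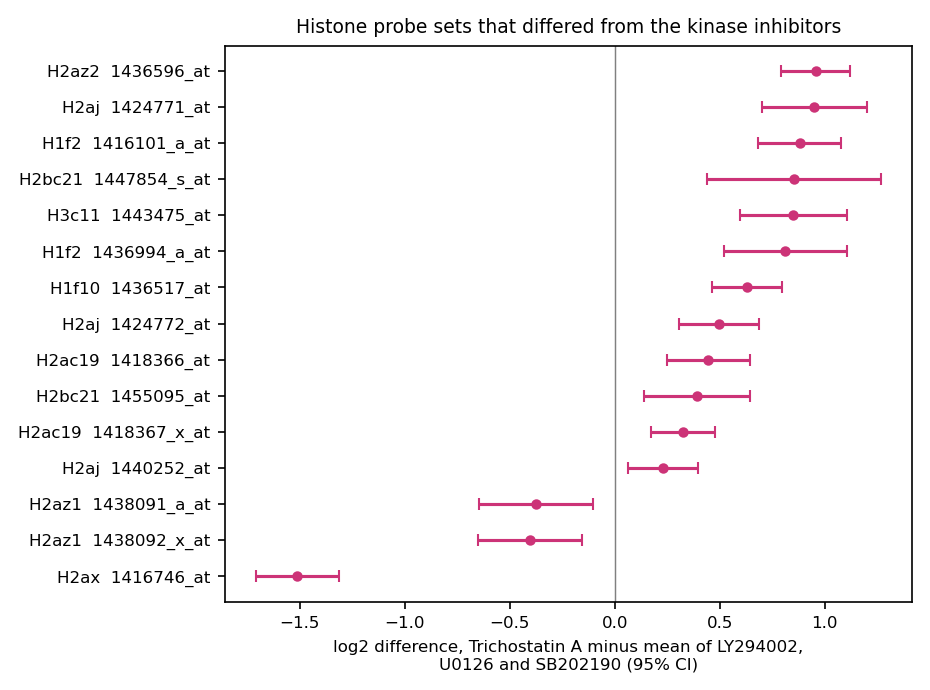
Log2 difference between Trichostatin A and the mean of the 3 kinase inhibitors (horizontal axis) for the 15 histone probe sets called in limma (rows). Points are estimates and bars 95% confidence intervals. Among the 12 higher probe sets, the dimmer one of H2az2 leads at 0.96, followed by H2aj at 0.95. H2ax is lowest at -1.51. The brightest H2az2 probe set differed by 0.07, was not called and is not shown.

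Genes that serve histone supply were measured beside the members. Of 29 S phase and replication genes measured, 26 (89.7%) were lower and 0 higher with Trichostatin A, with a median difference of -1.10. Among all probe sets tested, 20.6% were lower and 23.0% higher. Tk1, the thymidine kinase of S phase, differed by -3.05, Cdc6, which loads the replicative helicase, by -2.63, and Ccna2, the S phase cyclin, by -2.62. In the kinase inhibitors 1 of the 29 was called, Fen1, a nuclease of lagging-strand synthesis, at -0.58 with LY294002. That is 3.4% lower with LY294002, against 1.78% of all probe sets tested. The replication-dependent histone probe sets and the S phase genes had medians of opposite sign with Trichostatin A (0.44 and -1.10). H2ax, the probe set shared by 10 H2A genes and those shared by H2az1 and Gm8203 were called lower, the sign of the S phase genes. The single-symbol H2az1 probe sets had that sign too, without a call.

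Of 17 genes of histone mRNA processing and transcription, 3 (17.6%) were higher and 5 (29.4%) lower with Trichostatin A, shares near the 23.0% and 20.6% of all probe sets, and 0 were called with a kinase inhibitor. Slbp, which binds the stem-loop of histone mRNA, fell by 0.44 (log2 difference -0.44). Nfya and Nfyc, subunits of the CCAAT-binding factor, each differed by -0.64, and Eri1, an exonuclease that trims the stem-loop end, rose by 0.44. Of 16 histone chaperones, which carry histones to DNA, 2 (12.5%) were higher and 6 (37.5%) lower with Trichostatin A, against the same 23.0% and 20.6%, and 0 were called with a kinase inhibitor. Nasp, a chaperone of H3 and H4, differed by -1.11, Nap1l1, of H2A and H2B, by -0.67, and Daxx, of H3.3, rose by 0.58. Of 3 histone variants outside the naming rule, Cenpa, the H3 of centromeres, differed by -2.41 and Macroh2a2 by -1.06 with Trichostatin A, and Macroh2a1 was not called.

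**Figure D4:**
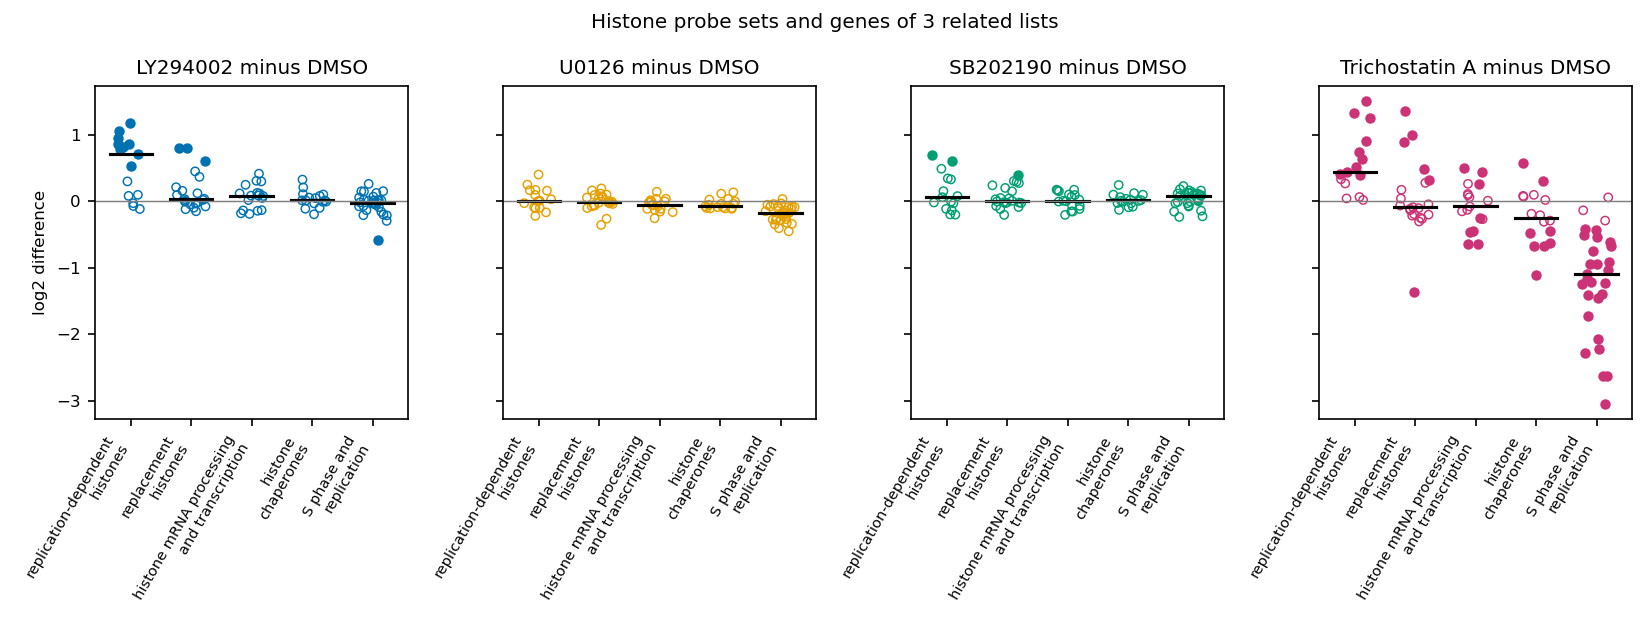
Log2 difference from DMSO (vertical axis) of histone probe sets by class and of genes of 3 related lists (horizontal axis), with 1 panel per inhibitor. Each point is a probe set or gene, filled where the adjusted p in limma was under 0.05, and bars are medians over all points shown. With Trichostatin A the medians run from 0.44 for replication-dependent histones to -1.10 for S phase genes.

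Cell type markers moved with Trichostatin A too, where 23.0% of all probe sets tested were higher and 20.6% lower. All 8 chondrocyte markers were lower, their mean log2 signal lying between 10.8 and 11.4 on the Trichostatin A arrays. Of 6 skeletal muscle markers 5 were lower, with list means of 6.73 to 6.86 against 7.87 to 9.0 in DMSO, and of 4 fibroblast markers 3 were lower. Of 6 macrophage and leukocyte markers 5 were tested, and of these 1 was higher and 3 were lower. Of 4 endothelial markers 2 were tested and 1 was higher. Of 2 erythroid markers measured, 1 was tested and not called. With LY294002, 2 of 8 chondrocyte markers and 1 of 5 macrophage markers tested were higher, against 6.83% of all probe sets tested. With U0126, 2 of 8 chondrocyte markers were higher, against 1.14% of all probe sets tested. With SB202190, 1 of 5 macrophage markers tested was higher, against 1.23%. The part of these shifts, and of the way mRNA with or without poly(A) tails was labelled, in the histone differences was not tested.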

How the data were processed

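The deposited table holds log2 signals of 15 Affymetrix mouse whole-genome expression arrays that the authors had background-corrected and normalized between arrays before deposit. GC-RMA is the procedure the study names, but whether it made this table is not settled. The number of arrays limits the precision. Per the labels, samples were grouped by treatment and replicate number. Here 64 array control probe sets were left out, and limma 3.58.1 in R 4.3.3 was run on all 15 arrays with 1 mean per treatment (10 residual degrees of freedom). Its script was tested on simulated data. Probe sets were named from the platform annotation, and 36 of 36 member identifiers were in the RefSeq table of GRCm38.p6. Promoter windows are from RefSeq. Named with values were the replacement histones of somatic cells, with Trichostatin A whatever their result and with the kinase inhibitors only in part. In each comparison the up to 5 genes with the largest called rise and fall were named too. Other probe sets of a gene were given by sign and call. H1f0 was not analysed here. The members, lists and motifs were chosen with earlier results of these data known.

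Replicate numbers came from the sample titles. Deviations from treatment means correlated between same-numbered arrays of DMSO and LY294002 at 0.407 to 0.771, of U0126 at 0.329 to 0.719 and of SB202190 at 0.237 to 0.327, so the number was taken to pair these arrays. For Trichostatin A the lowest was 0.0268, and the number was not taken to pair them. The main fit holds no term for the replicate number, so its counts and p-values leave the pairing out. The replicate block adds that term and is given as an alternative for the members. Lists, markers and shared probe sets are given from the main fit only. Alternatives were the replicate block, no signal filter or one of 100, quantile normalization, median centring, a trended robust prior, only the arrays of the groups compared, and leaving out each array. With 3 arrays against 3 an exact permutation test cannot go below 0.1.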

Additional observations from a re-analysis of the deposited data

How the results depend on the processing

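Of 340 alternative values of the 23 named gene differences, 323 kept direction and side of the threshold, 17 lost the call and 0 changed sign. All 23 were called in the main fit, so only a loss could be counted. The replicate block, the filters, the trended prior and the fit of only the groups compared leave the estimate unchanged. A change of sign was therefore possible only in the other alternatives. The lost calls were of H1f10 (9), H2aw (4) and H1f2 (1) with SB202190, and of H2az1 (2) and H2bc21 (1) in Trichostatin A against the kinase inhibitors. For H1f10 with SB202190 the adjusted p in limma reached 0.183 with quantile normalization. With the replicate block, 1 member was called higher and 1 lower with U0126, 5 were higher with SB202190, and 3 were lower with Trichostatin A, where the numbers were not taken as pairs. Quantile normalization gave 1 lower with U0126 and 3 lower with Trichostatin A, and no filter gave 2 lower with Trichostatin A. Leaving out 1 array at a time, the number higher ranged from 11 to 13 with LY294002, 0 to 1 with U0126 (1 without DMSO replicate 1), 0 to 3 with SB202190, 12 to 15 with Trichostatin A and 11 to 13 in Trichostatin A against the kinase inhibitors. The number lower ranged from 1 to 2 with Trichostatin A (2 without DMSO replicate 3 or Trichostatin A replicate 1) and from 1 to 3 against the kinase inhibitors (1 without Trichostatin A replicate 3). The cause of these changes was not tested. With only the 6 arrays of DMSO and LY294002, 9 of the 12 members higher with LY294002 were called. With the block, all 12 were called and 2 more, H2ax and H3f3b. The median SE of a member's log2 difference from DMSO was 0.115 to 0.116, and signals near the filter and copies sharing probes limit what can be read of single genes.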

Other observations

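Of the 27 probe sets annotated to several symbols, 3 pair 1 histone gene with a symbol that is not a named histone, and the others are shared by several histone genes. With LY294002, 10 of 23 tested were higher and 0 lower, against 6.83% and 1.78% of all probe sets tested. With Trichostatin A, 11 of 23 were higher and 3 lower, against 23.0% and 20.6%. Among those higher in both comparisons, 1 shared by 8 H3 genes had a DMSO mean of 5.50, under the signal minimum. It entered each test through the mean of the inhibitor. With U0126 and with SB202190, 0 of 22 tested were called in limma. At an unadjusted p under 0.05 there were 2 higher and 1 lower with U0126 and 4 higher and 0 lower with SB202190. The share of all probe sets at that unadjusted threshold was not counted. A probe set shared by 10 H2A genes read 13.08, 12.66 and 12.61 in DMSO and 11.13, 10.70 and 9.66 with Trichostatin A, a difference of -2.29 (limma adjusted p = 1.70e-06), opposite in sign to the single-symbol H2A genes H2ac19 and H2aw. With LY294002 its difference was 0.09 (95% CI from the same fit -0.46 to 0.65). A probe set shared by 2 H2B symbols read 6.01, 5.89 and 6.09 in DMSO and 7.49, 7.26 and 6.89 with Trichostatin A, a difference of 1.22 (limma adjusted p = 8.69e-07). A probe set annotated to 3 H2B genes rose by 0.76 with LY294002 and by 0.42 with Trichostatin A. These probe sets were chosen after their values were seen.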
